A study of Homo sapiens with 9 samples.

Results

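Cells that overexpressed wild-type RAI2 were set against cells that carried the empty vector, and the response was described across all genes that could be measured. The comparison took 6 of the 9 arrays of the series, namely the 3 labelled RAI2 and the 3 labelled vector, and every probe with 1 gene symbol. The cells, MDA-MB231, are a long-established line of human breast cancer that lacks hormone receptors and grows with a mesenchymal shape. All 3 groups of the series were transduced with retrovirus made in φNX-ampho packaging cells, and were then kept in puromycin at 2 µg/ml for 4 days. The groups are MDA-MB231 cells that overexpressed RAI2 (3 arrays), the same line with a form named RAI2-4A (3 arrays), and the same line with the vector alone (3 arrays). What 4A denotes is not stated in the labels, nor whether the cells were a pool or a clone, or whether the replicates came from separate cultures. The p-values therefore measure the spread between these samples, which may be technical.

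RAI2, retinoic acid induced 2, is a nuclear protein without a known enzymatic domain. It binds CtBP1 and CtBP2, corepressors that DNA-bound factors such as ZEB1 recruit to switch genes off by way of histone deacetylases and demethylases. In breast cancer, low RAI2 has been linked to early spread of tumour cells to the bone marrow. The comparison asks which transcripts rise or fall when RAI2 is overexpressed in this line.

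Labelled RNA was read on single-colour Illumina bead arrays, which give 1 brightness value (intensity, linear scale) per probe and array. The intensities quoted below are the deposited ones, and differences are given in log2 units after a background correction that shrinks those of dim probes. A probe counted as lying above background if it exceeded an intensity of 99.78 to 104.2, depending on the array. Between 20029 and 22677 of 47323 probes did so, and 12437 genes were tested. Levels of different genes cannot be compared on such arrays, since each probe has its own brightness.

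Of the arrays compared, vector replicate 1 stood apart from the other vector arrays. On it 207 genes read at least 2-fold above both other vector arrays, while vector replicates 2 and 3 had 0 such genes. RAI2 replicate 2 had 19 and RAI2-4A replicate 2 had 63, and the remaining arrays had 0. Of the 207 genes, RAI2 replicate 2 was the highest RAI2 array for 172 and RAI2-4A replicate 2 the highest RAI2-4A array for 188. PGAM1, a glycolytic enzyme, illustrates this, with 162, 390 and 217 in RAI2 cells and 3578, 202 and 210 in vector cells. Its log2 difference of -1.20 (SE 0.93, limma, adjusted p = 0.988) takes in that single high vector array. None of the 207 genes passed the test between RAI2 and vector. Counts are therefore also given without RAI2 replicate 2, RAI2-4A replicate 2 and vector replicate 1; this setting was chosen with earlier results of these data known.

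The line's own markers, such as VIM, CD44 and CAV1, were present: 13 of 15 were above background on all 9 arrays. Of 18 luminal and hormone receptor genes 10 were above it on all 9, and ESR1, PGR and FOXA1 on none. Of 12 packaging cell markers 6 were above background on no array, 1 on all 9 and the others on some. The summed intensity of the 12 was 1084 to 1182 in RAI2 cells and 1141 to 1232 in vector cells. Of 15 fibroblast and endothelial markers 4 (THY1, CDH5, VWF and CLDN5) were above background on no array, 3 on all 9 and the others on some. The sum over the 15 was 1492 to 1588 in RAI2 cells and 1549 to 1561 in vector cells. Of 17 leukocyte markers 6 were above background on no array (PTPRC, CD3D, CD3E, LYZ, TYROBP and FCER1G), 6 on all 9 and the others on some. The leukocyte sum was nevertheless 4338 to 4506 in RAI2 cells and 3628 to 4021 in vector cells, and it holds LCP1 and CD14, which are among the genes that rose. It also holds CD74 and HLA-DRA, of class II antigen presentation, which did not pass. CD74 averaged 626 in RAI2 cells and 435 in vector cells (limma, adjusted p = 0.354), and HLA-DRA averaged 335 in RAI2 cells and 190.1 in vector cells (limma, adjusted p = 0.318).

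The transgene followed the labels. The only RAI2 probe read 632, 603 and 559 in RAI2 cells and 88.3, 86.3 and 95.8 in vector cells. It was above background on all RAI2 arrays and on no vector array, so the rise is a lower bound, at least 5.83-fold (limma, adjusted p = 5.72e-09). That bound, here and for other genes below background in vector cells, is taken on the deposited intensities, without background correction. It sets the mean log2 value of the RAI2 arrays against the higher, on each vector array, of the gene's own value and the lowest value among probes above background. Its partners CTBP1 and CTBP2 did not pass the test, at -0.10 and 0.013 log2 units, and of 14 measured genes of the CtBP corepressor complex RAI2 alone passed the test.

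In RAI2 cells 40 genes rose and 12 fell relative to vector cells, 52 of 12437 genes or 0.418% (0.322% higher and 0.0965% lower; limma over all 9 arrays, Benjamini-Hochberg adjusted p under 0.05). Among the genes that rose were the antimicrobial peptide DEFB103A, the receptor regulator LRIG1, the adhesion protein IGSF3, the actin bundler LCP1, the matrix protein TGFBI and the chemokine CCL2. Among those that fell were the teneurin TENM3, the small GTPase RASD1, the vasoactive peptide ADM and 2 pregnancy-specific glycoproteins. Most changes were moderate, with 14 rises and 2 falls of 2-fold or more and a median of 0.84 log2 units among the rises and -0.78 among the falls, against 0.017 over all genes. All 52 had RAI2 arrays that did not overlap the vector arrays, as had 10.1% of all tested genes (6.26% with all RAI2 arrays above and 3.81% with all below). An unadjusted p under 0.05 was seen for 5.9% of all genes, 3.89% higher and 2.01% lower. In bulk RNA, fewer cells that express a gene and less RNA per cell cannot be told apart. Without the 3 arrays that stood apart, 58 genes passed (41 higher, 17 lower), 44 of the 52 among them. The 8 that did not were SPANXA1, TNFRSF11B, PSG6, RTKN, LY6E, MPZL2, L1CAM and MANCR.

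**Figure D1:**
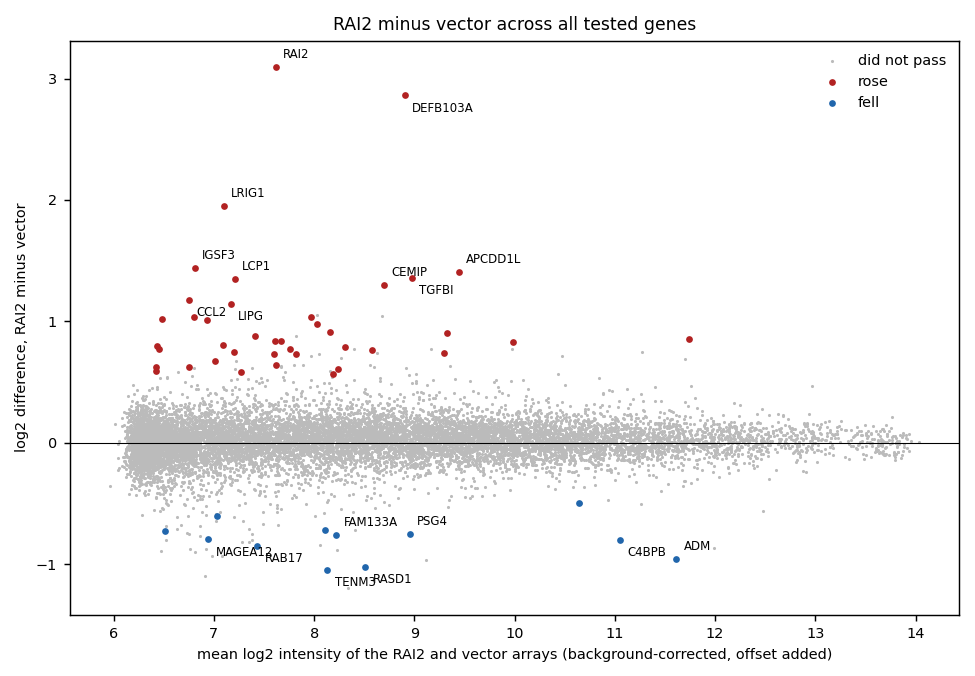
Each point is 1 of 12437 genes, with its mean log2 intensity on the horizontal axis and its log2 difference, RAI2 minus vector, on the vertical axis. The 40 genes that rose and the 12 that fell are coloured, and most lie at low to middle intensity, with RAI2 and DEFB103A farthest up.

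Of the 52 genes, 16 passed whichever single array was left out. They were RAI2, the surface proteins LRIG1, IGSF3, APCDD1L, COLEC12, SORCS2 and TENM3, the secreted proteins DEFB103A, TGFBI, CCL2, SERPINA1 and ADM, and AMPH, LCP1, RASD1 and CYGB. The other 36 did not pass without at least 1 array. The highest adjusted p over the 9 arrays left out in turn is given with each group of genes. Counts fell to 21 genes without RAI2 replicate 1, 21 without RAI2 replicate 2, 26 without RAI2 replicate 3 and 27 without vector replicate 3.

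**Figure D2:**
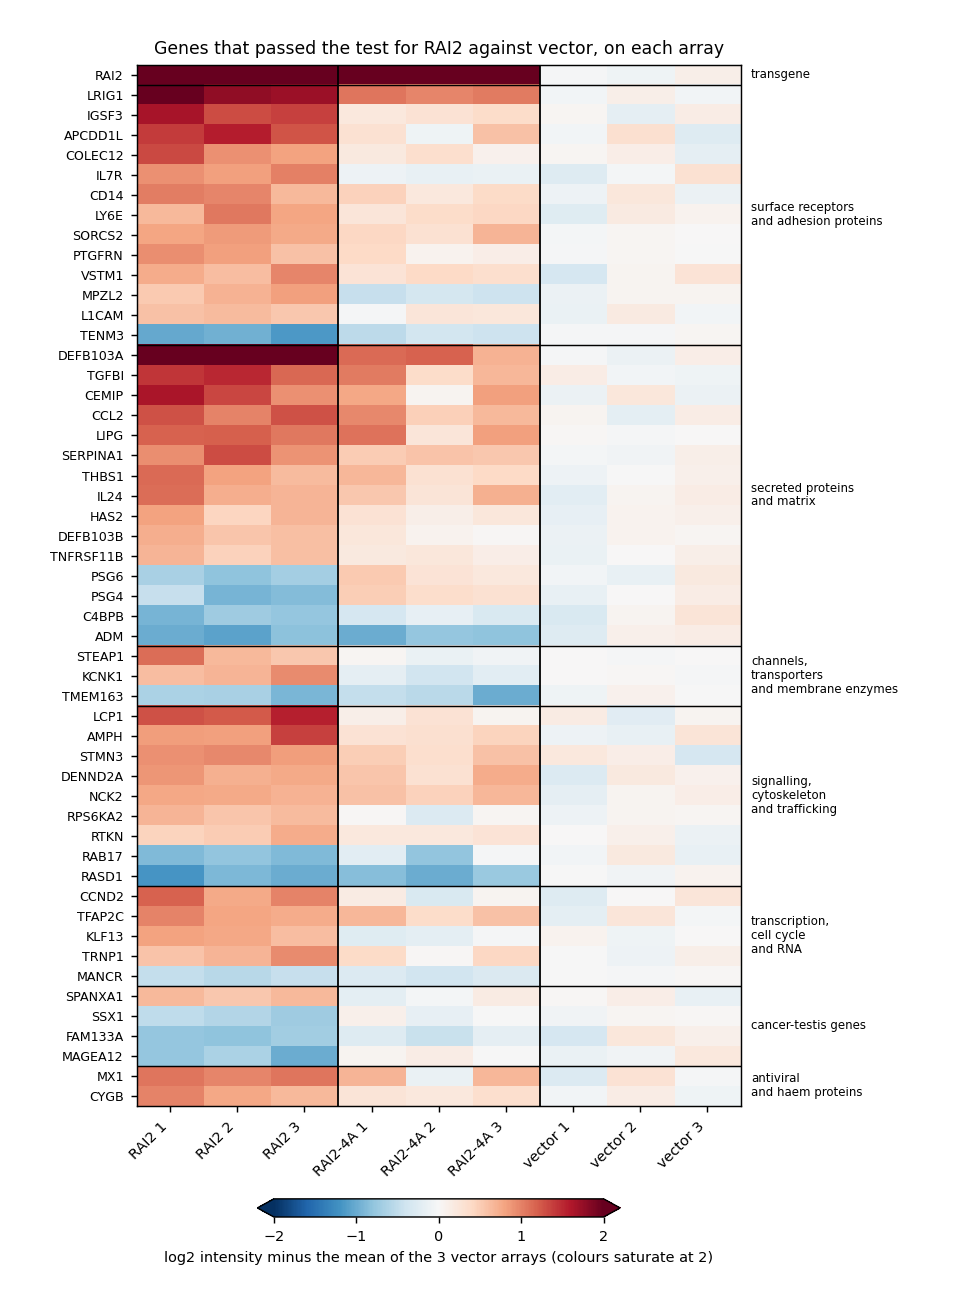
Rows are the 52 genes that passed, grouped by role, and columns are the 9 arrays (RAI2, RAI2-4A, vector). Colour gives the log2 value of the gene on that array minus the mean of the 3 vector arrays, saturating at 2, and in every row the 3 RAI2 columns lie on the same side of the vector columns.

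Surface receptors and adhesion proteins made up 13 of the 52 genes, 12 higher and 1 lower. Roles were assigned only to the genes that passed, so the share of each role among all tested genes is not known. The role counts therefore do not show that the response favours a role. Counts for gene lists below stand beside the 0.418% of all tested genes that passed. The lists were written with earlier results of these data known. They hold 979 tested genes and 34 of the 52 that passed. A list share or median that stands apart is therefore no independent support for a response of that list. LRIG1, a transmembrane protein that promotes the breakdown of ERBB receptors, read 382, 262 and 252 in RAI2 cells and 89.5, 99.2 and 90.1 in vector cells. Every RAI2 array was above every vector array, and the brightest probe, above background on no vector array, was at least 2.86-fold higher (limma, adjusted p = 2.99e-05). Another LRIG1 probe, above background on 2 vector arrays, differed by 1.36 log2 units. IGSF3, an immunoglobulin superfamily member of the tetraspanin web, read 236, 191 and 199 in RAI2 cells and 92.2, 83.6 and 98.3 in vector cells. It was at least 2.03-fold higher (limma, adjusted p = 7.56e-05), with no vector array above background. PTGFRN, of the same subfamily and a partner of tetraspanins, read 151, 140.3 and 123 in RAI2 cells and 87.9, 91.7 and 89.6 in vector cells, at least 1.34-fold higher (limma, adjusted p = 0.0117), and its other probe differed by 0.81. In the order of protein-coding genes on the chromosome, IGSF3 and PTGFRN lie 2 places apart, with CD2 between them, which differed by 0.055 (limma, adjusted p = 0.988).

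APCDD1L, whose relative APCDD1 restrains WNT signalling at the membrane, read 1147, 1297 and 1047 in RAI2 cells and 435, 556 and 379.9 in vector cells. Its rise was 1.41 on the log2 scale (SE 0.18, limma, adjusted p = 0.00246), with a wide gap between the groups. COLEC12, a scavenger receptor with a collagen-like stalk, read 180.4, 141 and 134 in RAI2 cells and 86.9, 92.2 and 78.5 in vector cells. It was above background on the RAI2 arrays only among all 9, and at least 1.47-fold higher than in vector cells (limma, adjusted p = 0.00591). SORCS2, a sortilin-family receptor for neurotrophin precursors, read 136, 140.1 and 134 in RAI2 cells and 85.9, 90.4 and 88.3 in vector cells, at least 1.33-fold higher (limma, adjusted p = 0.00591). The RAI2 arrays lay close together for SORCS2, and none of the vector arrays was above background.

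Receptors better known from leukocytes also rose. IL7R, the alpha chain of the interleukin-7 receptor, read 413, 389.6 and 443 in RAI2 cells and 196, 225 and 279.7 in vector cells, a rise of 0.91 (SE 0.13, limma, adjusted p = 0.00734), and its other probe differed by 0.58. CD14, the co-receptor for bacterial lipopolysaccharide, read 277, 268 and 219 in RAI2 cells and 139, 169.7 and 138 in vector cells, a rise of 0.88 (SE 0.14, limma, adjusted p = 0.0102), and its other probe, above background on 4 arrays, differed by 0.46. VSTM1, an inhibitory receptor of myeloid cells, read 298, 276 and 348 in RAI2 cells and 154, 196 and 222 in vector cells, a rise of 0.78 (SE 0.15, limma, adjusted p = 0.0385). Of 17 leukocyte markers, 6 were above background on no array, PTPRC, CD3E, LYZ and TYROBP among them. Another 6 were above it on every array and the others on some, as given above. LY6E, a lipid-anchored protein of the LY6 family, read 1216, 1604 and 1341 in RAI2 cells and 663, 887 and 821 in vector cells, a rise of 0.83 (SE 0.14, limma, adjusted p = 0.0147).

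MPZL2, an adhesion protein of epithelia, read 169.8, 188 and 203 in RAI2 cells and 117, 129 and 129 in vector cells, a rise of 0.68 (SE 0.11, limma, adjusted p = 0.0128). Another MPZL2 probe, above background on 8 arrays, differed by 0.10, so its probes disagree. L1CAM, a neural adhesion molecule, read 129, 131 and 125 in RAI2 cells and 86.4, 102 and 90.2 in vector cells, at least 1.25-fold higher on a probe not above background in vector cells (limma, adjusted p = 0.0465). A second L1CAM probe, above background on 1 RAI2 and 1 vector array, differed by -0.067. TENM3, a teneurin that guides contacts between neurons, was the only surface protein that fell, with 222, 229 and 205 in RAI2 cells and 421, 419 and 438 in vector cells. The 3 values of each group lay close together, and the fall was 1.05 log2 units (SE 0.10, limma, adjusted p = 0.000199).

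In the surface group, LRIG1, IGSF3, APCDD1L, COLEC12, SORCS2 and TENM3 passed whichever array was left out. IL7R did not pass without RAI2 replicate 3 (adjusted p up to 0.0557), and MPZL2 not without RAI2 replicate 2 or 3 (up to 0.0972). CD14 and PTGFRN did not pass without RAI2 replicate 1, RAI2 replicate 2 or vector replicate 3 (up to 0.079 and 0.0832), nor LY6E without RAI2 replicate 2, RAI2 replicate 3 or vector replicate 3 (up to 0.0861). VSTM1 did not pass without any 1 RAI2 array, vector array 1 or 2, or RAI2-4A array 1 or 3 (up to 0.232). L1CAM did not pass without any 1 RAI2 array, vector array 1 or 3, or RAI2-4A array 2 or 3 (up to 0.214).

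**Figure D3:**
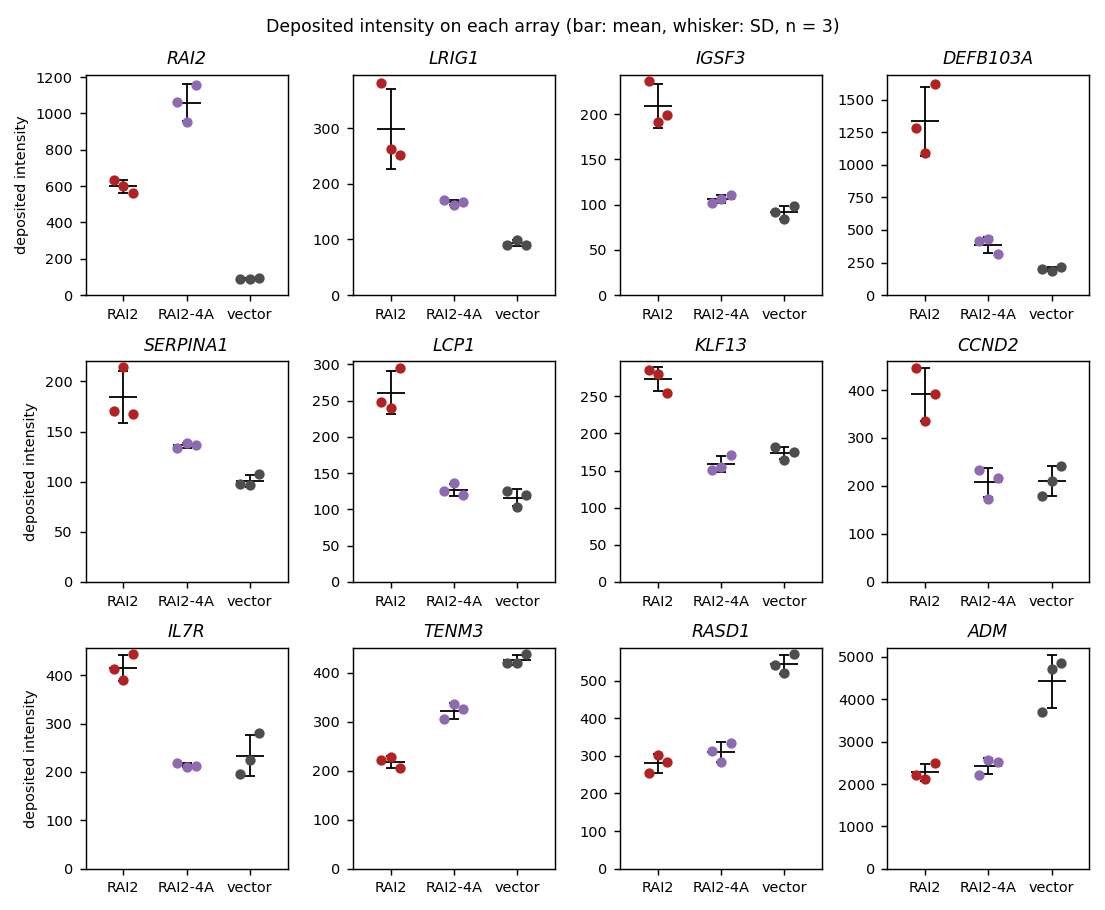
Deposited intensity (linear axis from 0) of RAI2 and 11 of the genes that changed, 1 point per array, with RAI2 left, RAI2-4A in the middle and vector right. Bars are means and whiskers SD (n = 3), and in each panel the 3 RAI2 points lie wholly above or wholly below the 3 vector points.

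Secreted and matrix proteins were the largest group of the genes that passed, with 15 genes, 11 higher and 4 lower. DEFB103A, an antimicrobial beta-defensin of epithelia, read 1284, 1096 and 1623 in RAI2 cells and 198, 188 and 218 in vector cells. Its rise was 2.86 on the log2 scale (SE 0.16, limma, adjusted p = 8.29e-07), its lowest RAI2 array far above its highest vector array, and a second probe differed by 2.75. DEFB103B, its near-identical copy in the genome, read 138, 124 and 128 in RAI2 cells and 86.4, 96.0 and 93.9 in vector cells, at least 1.27-fold higher (limma, adjusted p = 0.0183). Whether the probes of the 2 copies detect each other's transcript was not tested. The other 3 measured epithelial antimicrobial genes, DEFB1, LCN2 and S100A8, did not pass, at -0.085, 0.19 and 0.16.

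TGFBI, a matrix protein that binds collagen and integrins, read 867, 919 and 718 in RAI2 cells and 369.9, 325 and 319 in vector cells, a rise of 1.36 (SE 0.16, limma, adjusted p = 0.00141). THBS1, the matricellular protein thrombospondin, read 5607, 4439 and 3957 in RAI2 cells and 2389.9, 2557 and 2756 in vector cells, a rise of 0.86 (SE 0.14, limma, adjusted p = 0.0149). These were the 2 that passed among 22 measured matricellular and basement membrane genes (9.09%, against 0.418% of all tested genes), whose median was 0.10. That list was written with earlier results known, so its share does not show a response of the list. CEMIP, which takes part in hyaluronan breakdown, read 849, 695 and 522 in RAI2 cells and 267, 334 and 268 in vector cells, a rise of 1.30 (SE 0.21, limma, adjusted p = 0.0147). HAS2, which makes hyaluronan, read 299, 236 and 276 in RAI2 cells and 163, 189 and 192 in vector cells, a rise of 0.64 (SE 0.12, limma, adjusted p = 0.0406). A second HAS2 probe, above background on all 9 arrays, differed by only 0.055, so the probes of HAS2 disagree. The remaining 6 measured hyaluronan genes, the receptor CD44 at 0.23 among them, did not pass.

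CCL2, the monocyte chemoattractant, read 196, 166 and 196 in RAI2 cells and 96.5, 85.8 and 102 in vector cells. It was above background on no vector array and at least 1.81-fold higher (limma, adjusted p = 0.00178). IL24, a cytokine of the interleukin-10 family, read 354, 274 and 266 in RAI2 cells and 154, 182 and 192 in vector cells, a rise of 0.84 (SE 0.15, limma, adjusted p = 0.0299). Both belong to a list of 20 measured chemokines and cytokines, whose median was 0.15. Of these 20 genes 2 passed (10%, against 0.418% of all tested genes), in a list likewise written with earlier results known. TNFRSF11B, the decoy receptor osteoprotegerin that captures RANK ligand, read 227, 198 and 215 in RAI2 cells and 138, 151 and 161 in vector cells, a rise of 0.58 (SE 0.11, limma, adjusted p = 0.0311).

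SERPINA1, the protease inhibitor alpha-1-antitrypsin, read 171, 214 and 168 in RAI2 cells and 97.8, 97.0 and 107 in vector cells. It was above background on 1 vector array, rose by 1.04 (SE 0.12, limma, adjusted p = 0.00141), and differed by 0.97 on a second probe. LIPG, the endothelial lipase, read 242, 245 and 225 in RAI2 cells and 121, 118 and 119.8 in vector cells, a rise of 1.15 (SE 0.17, limma, adjusted p = 0.00734). A second LIPG probe, above background on 8 arrays, differed by 0.48, and the mean of both probes did not pass, at 0.81 (limma, adjusted p = 0.0665). LIPG was the only member to pass of 17 measured lipases and lipid uptake genes, whose median was 0.011.

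The 4 secreted proteins that fell were ADM, C4BPB, PSG4 and PSG6. ADM, adrenomedullin, a peptide that dilates vessels and is induced by hypoxia, read 2208, 2113 and 2506 in RAI2 cells and 3693, 4723 and 4849 in vector cells. It fell by 0.96 log2 units (SE 0.13, limma, adjusted p = 0.00411). It was the only member to pass of 29 measured hypoxia and glycolysis genes, whose median was -0.025. C4BPB, a chain of the complement inhibitor C4b-binding protein, read 1493, 1744 and 1670.4 in RAI2 cells and 2288, 2924 and 3379.8 in vector cells. It fell by 0.80 (SE 0.14, limma, adjusted p = 0.0199), and a second probe differed by -1.01.

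Pregnancy-specific glycoproteins are secreted relatives of the CEACAM proteins, made in bulk by the placenta. PSG4 read 491, 360.5 and 377 in RAI2 cells and 599.6, 668 and 736 in vector cells, and fell by 0.75 (SE 0.13, limma, adjusted p = 0.0282). PSG6 read 248, 226 and 244 in RAI2 cells and 365, 344 and 428 in vector cells, and fell by 0.71 (SE 0.12, limma, adjusted p = 0.0196). The groups did not overlap for either gene, and their second probes differed by -0.47 (PSG4) and -0.25 (PSG6). The 2 lie 5 places apart in a cluster of PSG genes, and the measured genes between them were PSG7 at -0.48, PSG2 at -0.25 and PSG5 at -0.16, none of which passed. Over the 9 measured PSG and CEACAM genes the median was -0.46, against 0.017 for all genes, with 2 falls, 0 rises and 8 of 9 values negative. CEACAM1 was the exception, at 0.33. Of all tested genes 0.0965% fell, 0.322% rose and 44.7% had a negative value. PSG genes are highly alike, and whether their probes detect each other's transcripts was not tested.

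In the secreted group, DEFB103A, TGFBI, CCL2, SERPINA1 and ADM passed whichever array was left out. LIPG did not pass without RAI2 replicate 1 or 2 (adjusted p up to 0.0515). CEMIP did not without RAI2 replicate 1, RAI2 replicate 2 or vector replicate 3 (up to 0.0968), nor THBS1 without RAI2 replicate 1, RAI2 replicate 2 or vector replicate 2 (up to 0.0832). DEFB103B and PSG6 did not pass without any 1 RAI2 array or vector replicate 3 (up to 0.132 and 0.111). PSG4 did not without RAI2 replicate 2 or 3 or vector replicate 2 or 3 (up to 0.18), nor C4BPB without any 1 RAI2 array or vector replicate 2 or 3 (up to 0.146). IL24 did not pass without any 1 of the 6 arrays compared (up to 0.17), nor TNFRSF11B without any 1 of these 6 or RAI2-4A replicate 3 (up to 0.197). HAS2 did not without RAI2 replicate 1 or 3, any 1 vector array, or RAI2-4A replicate 1 or 3 (up to 0.238).

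Signalling, cytoskeletal and trafficking proteins numbered 9, with 7 higher and 2 lower. LCP1, plastin-2, which bundles actin filaments and is best known from leukocytes, read 248, 239 and 294 in RAI2 cells and 126, 103 and 119.7 in vector cells. It rose by 1.35 (SE 0.13, limma, adjusted p = 0.000199), and of 21 measured actin regulators it was the only one to pass. AMPH, amphiphysin, which bends membranes during endocytosis, read 177, 175 and 247 in RAI2 cells and 102, 101 and 126 in vector cells, a rise of 1.01 (SE 0.15, limma, adjusted p = 0.0102). STMN3, a stathmin that binds tubulin, read 904, 937 and 863 in RAI2 cells and 563, 536 and 396 in vector cells, a rise of 0.90 (SE 0.14, limma, adjusted p = 0.0102). NCK2, an adaptor between receptor tyrosine kinases and actin, read 857, 842 and 806 in RAI2 cells and 451, 526 and 556 in vector cells, a rise of 0.74 (SE 0.11, limma, adjusted p = 0.00893). For LCP1, AMPH, STMN3 and NCK2 a gap separated the groups.

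DENND2A, an exchange factor for a Rab GTPase, read 470.2, 418 and 431 in RAI2 cells and 223, 298 and 279 in vector cells, a rise of 0.79 (SE 0.14, limma, adjusted p = 0.0276). RPS6KA2, a ribosomal S6 kinase downstream of ERK, read 163, 150.0 and 159 in RAI2 cells and 104, 113 and 112 in vector cells, a rise of 0.63 (SE 0.11, limma, adjusted p = 0.0282). A second RPS6KA2 probe differed by 0.10. It was above background on 3 arrays, 1 RAI2 and 1 vector array among them, and so is too dim to test the rise. The mean of both probes, which takes in that dim probe, did not pass, at 0.36. RTKN, a signalling scaffold protein, read 349, 363 and 424 in RAI2 cells and 263, 280.0 and 244 in vector cells, a rise of 0.57 (SE 0.11, limma, adjusted p = 0.0456). The 2 that fell are small GTPases of other families.

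RASD1, a Ras-like protein induced by glucocorticoids, read 253, 302 and 284 in RAI2 cells and 541, 519.7 and 570.0 in vector cells. Its highest RAI2 array was far below its lowest vector array, and it fell by 1.02 log2 units (SE 0.11, limma, adjusted p = 0.000834). Of 17 measured nuclear receptors and glucocorticoid target genes it was the only one to pass. RAB17, a Rab GTPase of polarised epithelia, read 149.5, 157 and 149 in RAI2 cells and 247, 288 and 233 in vector cells, and fell by 0.85 (SE 0.17, limma, adjusted p = 0.0479).

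Of these 9 signalling and cytoskeletal genes, LCP1, AMPH and RASD1 passed whichever array was left out. STMN3 and NCK2 did not pass without RAI2 replicate 1 or 2 (adjusted p up to 0.0675 and 0.0608), nor DENND2A without any 1 RAI2 array or vector replicate 3 (up to 0.168). RPS6KA2 did not without any 1 of the 6 arrays compared (up to 0.168), nor RAB17 without any 1 of these or RAI2-4A replicate 1 (up to 0.232). RTKN did not pass without any 1 of the 9 arrays (up to 0.253).

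Nuclear and RNA genes numbered 5, with 4 higher and 1 lower. CCND2, cyclin D2, which drives entry into the cell cycle, read 446, 336 and 391 in RAI2 cells and 179, 211 and 242 in vector cells, a rise of 0.97 (SE 0.16, limma, adjusted p = 0.0147), and its second probe differed by 0.69. TFAP2C, the transcription factor AP-2 gamma of breast and trophoblast cells, read 313, 275 and 266 in RAI2 cells and 149.8, 195 and 164 in vector cells, a rise of 0.84 (SE 0.13, limma, adjusted p = 0.0117), and its second probe differed by 0.41. KLF13, a zinc-finger factor of the Krüppel-like family, read 285, 281 and 254 in RAI2 cells and 181, 165 and 174 in vector cells, a rise of 0.73 (SE 0.11, limma, adjusted p = 0.00734). TRNP1, a nuclear protein of neural progenitors, read 284, 301 and 359 in RAI2 cells and 196, 185 and 212 in vector cells, a rise of 0.73 (SE 0.13, limma, adjusted p = 0.0317). MANCR, a long non-coding RNA, read 1393, 1315 and 1396 in RAI2 cells and 1910.2, 1898 and 1956 in vector cells, and fell by 0.50 (SE 0.09, limma, adjusted p = 0.0406). None of the 5 passed whichever array was left out. KLF13 did not pass without RAI2 replicate 1 or 2 (adjusted p up to 0.0537), TFAP2C not without RAI2 replicate 1, RAI2 replicate 2 or vector replicate 3 (up to 0.0832), and CCND2 not without RAI2 replicate 1, RAI2 replicate 3 or vector replicate 2 (up to 0.107). TRNP1 did not without any 1 of the 6 arrays compared (up to 0.206), nor MANCR without any 1 of these or RAI2-4A replicate 1 or 3 (up to 0.188).

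Among channels and membrane enzymes, KCNK1, a potassium channel, read 198, 205 and 242 in RAI2 cells and 136, 139 and 135 in vector cells, a rise of 0.74 (SE 0.11, limma, adjusted p = 0.00968), and 0.61 on its second probe. STEAP1, a metal reductase family member of the plasma membrane, read 656, 482 and 448 in RAI2 cells and 317, 312 and 318 in vector cells, a rise of 0.77 (SE 0.14, limma, adjusted p = 0.0275). A second STEAP1 probe, above background on 3 arrays, differed by -0.16, and the mean of both probes did not pass. TMEM163, a zinc transporter, read 99.3, 97.6 and 85.8 in RAI2 cells, not above background on any of them, and 133, 148 and 140.0 in vector cells. It was at least 1.37-fold lower in RAI2 cells (limma, adjusted p = 0.0429). KCNK1 did not pass without RAI2 replicate 3 (adjusted p up to 0.0569), STEAP1 not without RAI2 replicate 1 or 2 or vector replicate 2 or 3 (up to 0.106), and TMEM163 not without any 1 RAI2 array or vector replicate 2 or 3 (up to 0.253).

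MX1, an antiviral GTPase induced by interferon, read 388, 367 and 392 in RAI2 cells and 166, 238 and 196 in vector cells, a rise of 1.04 (SE 0.20, limma, adjusted p = 0.0406). It was the only member to pass of a list of 35 measured interferon-stimulated genes. The list is not complete, and LY6E, which rose, was not on it. Its median was 0.17 with 28 of 35 values positive, against 55.3% positive over all genes. MX1 did not pass without any 1 RAI2 array or vector replicate 1 or 3 (adjusted p up to 0.208). CYGB, cytoglobin, an oxygen-binding haem protein, read 228, 200.2 and 185 in RAI2 cells and 122, 138 and 119.8 in vector cells. It rose by 0.80 (SE 0.12, limma, adjusted p = 0.00734) and passed whichever array was left out.

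Cancer-testis genes are normally read in the germ line and are often switched on in tumours. MAGEA12 read 118, 128 and 105 in RAI2 cells and 170.3, 178 and 210.3 in vector cells, and fell by 0.80 (SE 0.12, limma, adjusted p = 0.0117). FAM133A read 250.4, 244 and 264 in RAI2 cells and 331, 476 and 439.6 in vector cells, and fell by 0.76 (SE 0.14, limma, adjusted p = 0.0311). SSX1, a transcriptional repressor, read 137, 130.2 and 122 in RAI2 cells and 177, 189 and 188 in vector cells, and fell by 0.60 (SE 0.11, limma, adjusted p = 0.0275). SPANXA1, a sperm protein, went the other way, with 406, 376 and 404 in RAI2 cells and 270.1, 289 and 243 in vector cells, a rise of 0.61 (SE 0.12, limma, adjusted p = 0.0456). Over 17 measured cancer-testis genes 3 fell, 1 rose and 13 did not pass, with a median of -0.31 and 14 values negative. Of all tested genes 0.0965% fell, 0.322% rose and 44.7% had a negative value, with a median of 0.017. Second probes of SSX1 (above background on 4 arrays) and MAGEA12 (on 3) differed by 0.15 and -0.048, and that of SPANXA1 (on 8) by 0.48. These families are alike in sequence, and whether a probe detects its relatives was not tested. MAGEA12 did not pass without RAI2 replicate 1, RAI2 replicate 3 or vector replicate 3 (adjusted p up to 0.0841). FAM133A and SSX1 did not without any 1 RAI2 array, vector replicate 2 or 3, or RAI2-4A replicate 3 (up to 0.161 and 0.177), nor SPANXA1 without any 1 of the 6 arrays compared or RAI2-4A replicate 2 (up to 0.23).

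**Figure D4:**
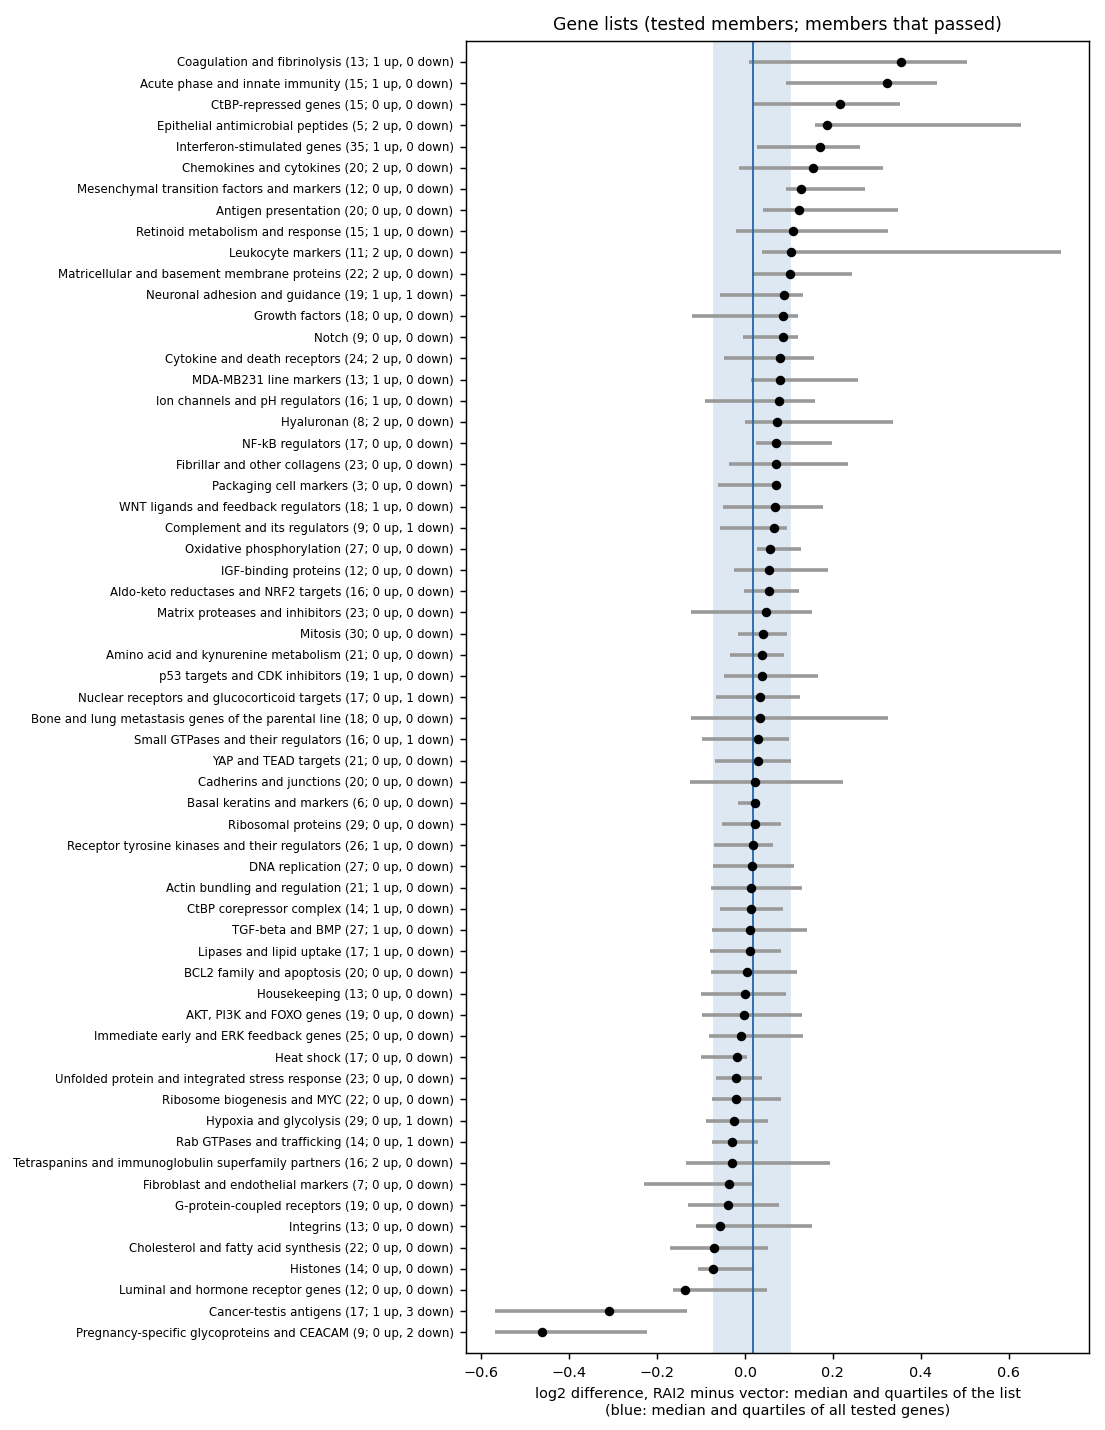
Each row is 1 of the 61 gene lists, with a point at the median log2 difference, RAI2 minus vector, of its measured genes and a line over their quartiles, and the blue band gives the same for all tested genes. The PSG and CEACAM list (-0.46) and the cancer-testis list (-0.31) lie farthest to the left, and coagulation and fibrinolysis (0.35) and acute phase genes (0.32) farthest to the right.

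Of 61 gene lists holding 1308 genes, 979 of them tested, 22 had at least 1 rise, 8 at least 1 fall, 2 of these both, and 33 had neither. Acute phase and innate immunity genes had a median of 0.32 over 15 genes, against 0.017 over all genes, with CD14 the only one to pass. SAA1, serum amyloid A, named after its value was seen, read 774, 536 and 544 in RAI2 cells and 266, 361 and 303 in vector cells, without overlap, a difference of 1.04 (SE 0.22, limma, adjusted p = 0.0712). Coagulation and fibrinolysis genes had a median of 0.35 over 13 genes, and SERPINA1 was the only one to pass. PROS1, the anticoagulant protein S, also named after its value was seen, read 694, 626 and 638 in RAI2 cells and 395, 494 and 461 in vector cells, a difference of 0.57 (SE 0.13, limma, adjusted p = 0.102).

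Genes that CtBP is known to repress, with cell cycle inhibitors and epithelial genes among them, had a median of 0.22 over 15 genes, 13 of them positive, and 0 rose or fell by the test. At an unadjusted p under 0.05 it was 5 higher and 0 lower. Of all tested genes 55.3% had a positive value, 3.89% were higher and 2.01% lower at that p, and the median was 0.017. The largest difference was that of CDKN1A, the cell cycle inhibitor p21, with 1616, 1668 and 1946 in RAI2 cells and 1273, 1210 and 1277 in vector cells. That was 0.48 log2 units (SE 0.12, limma, adjusted p = 0.152), without overlap between the groups. The epithelial cadherin CDH1, a textbook target of CtBP and ZEB1 named after its value was seen, differed by 0.0014. Luminal and hormone receptor genes had a median of -0.14 over 12 genes, with 0 passing, and SPDEF had the lowest value at -0.72 (SE 0.15, limma, adjusted p = 0.0715). Retinoid metabolism and response genes, from which RAI2 takes its name, had a median of 0.11 over 15 genes, and only the transgene RAI2 passed.

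Lists of growth and housekeeping genes held 0 genes that passed. None of 30 mitosis genes (median 0.040), 27 DNA replication genes (0.017), 27 oxidative phosphorylation genes (0.057) or 29 ribosomal protein genes (0.022) passed in limma. At an unadjusted p under 0.05 these lists had 1, 2, 0 and 1 genes higher and 0 lower. None of 23 collagens, 13 integrins or 12 mesenchymal transition genes passed either, with medians of 0.070, -0.057 and 0.13. At an unadjusted p under 0.05 they had 4, 1 and 3 genes higher and 2, 1 and 1 lower. Values were positive for 69.6%, 38.5% and 83.3% of them, against 55.3% of all tested genes. Of all tested genes 3.89% were higher and 2.01% lower at that p. As 0.418% of all tested genes passed, 0 in a list of this size does not set it apart.

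For the promoters of the genes that changed, the E-box that ZEB1 binds was searched, since ZEB1 is a factor that recruits CtBP. RefSeq promoters on GRCh38.p14 (250 bases before to 50 after a gene's start) were held for 36 of the genes that changed other than RAI2, 52 promoters in all. The 6-base motif CACCTG, or CAGGTG on the other strand, was in 9 of the 52 promoters (17.3%), and in 7231 of 35116 promoters of all genes (20.6%). The share among the promoters of the genes that changed was thus near that of all promoters. Some genes have several promoters, and the share of genes that hold the motif was not compared. The promoters below are those of the 3 genes with the largest differences among the ones that hold the motif, shown 5′ to 3′ on the gene's strand with the motif in capitals. They are LRIG1 at chr3:66405718-66406017, LCP1 at chr13:46182128-46182427 and SERPINA1 at chr14:94390586-94390885, all on the minus strand. LRIG1 has other starts in the table as well. A match is a stretch of letters and not a measured binding site.
LRIG1: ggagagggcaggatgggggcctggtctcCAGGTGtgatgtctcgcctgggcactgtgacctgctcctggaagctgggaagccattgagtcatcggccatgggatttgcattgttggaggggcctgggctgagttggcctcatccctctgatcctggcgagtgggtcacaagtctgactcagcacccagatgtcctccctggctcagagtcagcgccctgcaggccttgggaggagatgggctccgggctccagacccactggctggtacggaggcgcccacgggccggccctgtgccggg
LCP1: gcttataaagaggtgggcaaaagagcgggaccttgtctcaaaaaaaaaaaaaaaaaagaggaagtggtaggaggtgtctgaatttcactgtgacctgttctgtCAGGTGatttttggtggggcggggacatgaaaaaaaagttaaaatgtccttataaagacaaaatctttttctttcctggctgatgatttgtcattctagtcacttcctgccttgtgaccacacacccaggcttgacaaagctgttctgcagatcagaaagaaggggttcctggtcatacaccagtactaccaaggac
SERPINA1: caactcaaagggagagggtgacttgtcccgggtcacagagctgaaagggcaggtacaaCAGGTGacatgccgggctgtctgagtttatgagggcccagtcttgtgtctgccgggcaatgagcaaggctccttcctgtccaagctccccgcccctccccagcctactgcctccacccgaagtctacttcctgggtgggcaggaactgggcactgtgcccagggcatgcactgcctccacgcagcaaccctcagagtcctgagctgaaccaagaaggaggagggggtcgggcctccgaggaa

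To see where the response differed from that to RAI2-4A, RAI2 cells were also tested against RAI2-4A cells. In that comparison 47 of 12437 genes passed, 0.378% (24 higher, 0.193%, and 23 lower, 0.185%; limma, adjusted p under 0.05). Of the 52 genes that changed against vector 20 were among them, 14 higher and 6 lower in RAI2 cells. With the replicate number as a block over the RAI2 and RAI2-4A arrays alone, a fit added after the data were seen, 98 genes passed (58 higher, 40 lower), among them all 47 and so all 20. That pairing was read from these same data, so the block adds no independent support. With the block over all 9 arrays, SPANXA1 and SSX1 did not pass (limma, adjusted p = 0.0959 and 0.0837). The comparisons with vector and with RAI2-4A use the same RAI2 arrays, so their overlap is no independent support either. The RAI2 transcript itself was lower than in RAI2-4A cells, with 632, 603 and 559 in RAI2 cells and 1063, 955 and 1158 in RAI2-4A cells, a log2 difference of -0.85 (SE 0.11, limma, adjusted p = 0.00279). The 2 groups thus also differ in the amount of transgene.

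Of the genes that rose, DEFB103A, LRIG1, IGSF3, LCP1, APCDD1L, COLEC12, KLF13, IL7R, KCNK1, MPZL2, CCND2, STEAP1, RPS6KA2 and SPANXA1 were also higher than in RAI2-4A cells. LCP1 read 248, 239 and 294 in RAI2 cells and 125, 136 and 120.0 in RAI2-4A cells, a difference of 1.19 (SE 0.13, limma, adjusted p = 0.000726). KCNK1 read 198, 205 and 242 in RAI2 cells and 124, 111 and 122 in RAI2-4A cells, a difference of 1.00 (SE 0.11, limma, adjusted p = 0.000977). DEFB103A, at 1284, 1096 and 1623 in RAI2 cells and 414, 428 and 312 in RAI2-4A cells, differed by 1.85 (SE 0.16, limma, adjusted p = 0.000118). The RAI2 arrays lay above every RAI2-4A array for LCP1, KCNK1 and DEFB103A. IGSF3 differed by 1.15 (SE 0.12, limma, adjusted p = 0.000688), with 102, 106 and 111 in RAI2-4A cells.

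TENM3, MAGEA12, SSX1, PSG4 and PSG6 were lower in RAI2 cells than in RAI2-4A cells too. PSG4 read 491, 360.5 and 377 in RAI2 cells and 926, 847 and 818 in RAI2-4A cells, a difference of -1.13 (SE 0.13, limma, adjusted p = 0.00122). PSG6 read 248, 226 and 244 in RAI2 cells and 533, 452 and 433 in RAI2-4A cells, a difference of -1.05 (SE 0.12, limma, adjusted p = 0.00109). For both, every RAI2 array lay below every RAI2-4A array. MAGEA12 read 118, 128 and 105 in RAI2 cells and 193, 203 and 185 in RAI2-4A cells, a difference of -0.86 (SE 0.12, limma, adjusted p = 0.00556).

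The other 32 genes that changed against vector did not pass against RAI2-4A, which does not mean that all of them differed little. TGFBI differed by 0.67 (95% interval 0.32 to 1.01) and C4BPB by -0.53 (-0.83 to -0.24), intervals that exclude 0. RASD1, ADM, NCK2 and TMEM163 differed least between the transgenes. RASD1 read 253, 302 and 284 in RAI2 cells and 312, 284 and 335 in RAI2-4A cells, a difference of -0.16 with a 95% interval of -0.40 to 0.08. ADM read 2208, 2113 and 2506 in RAI2 cells and 2218, 2566 and 2518 in RAI2-4A cells, a difference of -0.099 (-0.37 to 0.18). For NCK2 the difference was 0.17 (-0.068 to 0.41), and for TMEM163 -0.061 (-0.36 to 0.24). The intervals of RASD1, ADM, NCK2 and TMEM163 include 0, which does not show that the transgenes act alike. For ADM and RASD1 the values in both groups lay below every vector array.

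**Figure D5:**
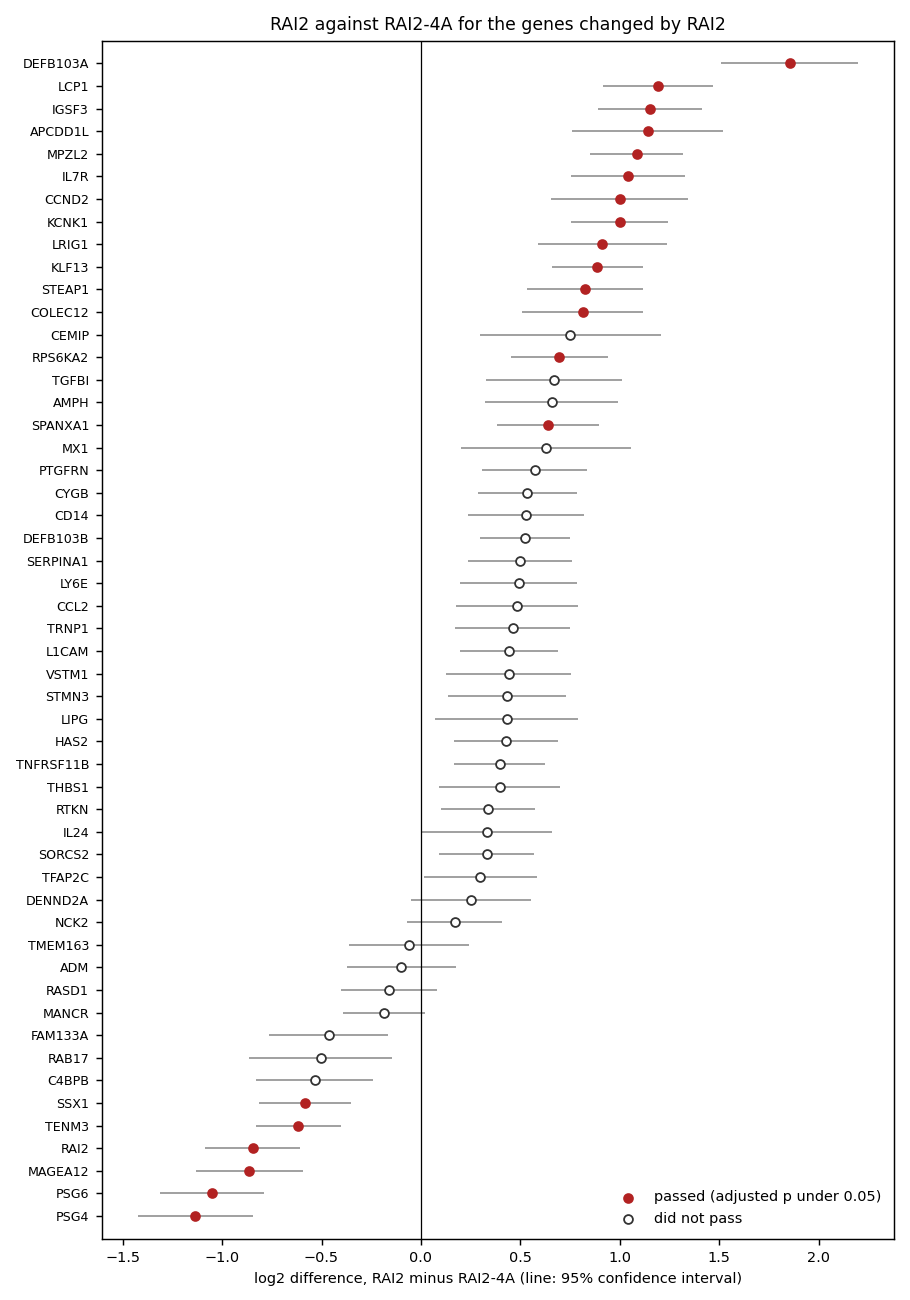
Each row is 1 of the 52 genes that changed against vector, and its point gives the log2 difference, RAI2 minus RAI2-4A, with a 95% confidence interval. Filled points are the 20 genes that also passed in this comparison. Open points are genes that did not, and the open points of RASD1 (-0.16) and ADM (-0.099) lie near 0.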

How the data were processed

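MDA-MB231 RNA (500 ng, biotin-labelled, per the labels' protocols) was read on Illumina bead arrays. The authors deposited 1 linear intensity for each of 47323 probes, with medians of 98.52 to 99.47 on every array, so they were taken as already normalized. BeadStudio and limma are named in the submitters' processing notes, and the method of normalization is not given in the sources used here. Another 18 columns bear names that match no sample and were not used, so planned steps on raw signals and detection p were replaced by steps on the deposited intensities.

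Each array was background-corrected with normexp (offset 50) in limma 3.58.1 under R 4.3.3, and log2 was taken. A probe was above background when it exceeded its array's mode by 1.645 SD, the SD taken from the side below the mode. Probes above it on at least 3 arrays were kept (22399), and the brightest named the gene. Of 30113 probes with 1 gene symbol, 30074 were found by Entrez ID in the RefSeq table of GRCh38.p14. A model over all 9 arrays (6 residual degrees of freedom) gave two-sided tests, with Benjamini-Hochberg adjustment over 12437 genes at 0.05. The scripts were tested on simulated data. Same-numbered RAI2 and vector arrays had residual correlations of -0.249, -0.287 and 0.197, so the numbers were not taken to pair these groups. Same-numbered RAI2 and RAI2-4A arrays correlated at 0.444, 0.437 and 0.231, so for these groups they were taken to pair the arrays, from the data and not the labels. Some differently numbered arrays correlated more closely. Vector 1 did so with RAI2 2 at 0.483 and with RAI2-4A 2 at 0.538, and vector 2 with RAI2-4A 3 at 0.469. Vector 1, RAI2 2 and RAI2-4A 2 are the arrays that stood apart. The correlations therefore do not show that the numbers pair the arrays.

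The comparison, gene lists and tests were chosen with earlier results of these data known, and roles were assigned after the genes that passed were seen. Named are RAI2, every gene that passed, and for each list described its members that passed, otherwise its largest positive or negative member above background, with exceptions marked in the text. Alternatives changed how background was corrected, arrays normalized, probes filtered and combined, the variance modelled and arrays weighted, the groups fitted and the replicate block, and left out arrays. Precision is limited by the number of arrays.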

Additional observations from a re-analysis of the deposited data

How the results depend on the processing

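The RAI2 rise passed under every alternative that gave a value (none under the stricter filter, which drops its probe). No gene that passed changed direction under these alternatives, followed by its brightest probe or the mean of its probes. Second probes of SSX1, STEAP1 and L1CAM differed in the other direction, as given above. As the mean of their kept probes, STEAP1, SSX1, L1CAM, HAS2, MAGEA12, PSG4, PSG6, MPZL2, RPS6KA2, LIPG, CD14, SPANXA1 and C4BPB did not pass. The other genes with a second kept probe passed that way. For RAI2 against vector, where 52 genes passed, averaging the probes of a gene gave 33, testing every probe on its own 30 and array weights 88, and leaving out 1 array gave 21 to 56. Without background correction it was 51, with background set to the mode 38, after quantile normalization 45, without a filter on dim probes 58, with a stricter one 36, with a trended and robust variance 72, and with only the 2 groups compared 48. For RAI2 against RAI2-4A, where 47 passed, the stricter filter gave 25, array weights gave 79, and leaving out 1 array gave 30 to 77. The replicate block gave 38 genes for RAI2 against vector (31 higher, 7 lower), 37 of them among the 52, and 38 for RAI2 against RAI2-4A, where SPANXA1 and SSX1 were the 2 of the 20 shared genes that did not pass. Restricted to the RAI2 and RAI2-4A arrays, whose numbers were taken to pair them, the replicate block gave 98. As the numbers were not taken to pair RAI2 with vector arrays, a call lost there is not a weaker effect. Over the genes that passed, 840 values under alternatives kept their direction and side of the threshold and 267 kept the direction alone. Of 1342 list medians under alternatives 79 moved by more than their spread, and 90, in 32 lists with medians of at most 0.088 in size, had the other sign. The PSG and CEACAM median ran from -0.79 (background at the mode) to -0.28 (array weights), that of cancer-testis genes from -0.50 to -0.22, of CtBP-repressed genes from 0.11 to 0.25, of coagulation genes from 0.19 to 0.37 and of acute phase genes from 0.19 to 0.37. The causes were not tested. A dim probe bounds a fold only from below, and its log2 difference depends on the background model: LRIG1 read 3.26 with the background at the mode, against 1.95 here.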

Other observations

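Just beyond the threshold, with an adjusted p from 0.05 up to 0.075 in limma, lay 13 genes, 10 of them higher and 3 lower in RAI2 cells. These genes were named after their values were seen. CYP24A1, the enzyme that inactivates vitamin D, read 304, 254 and 275 in RAI2 cells and 172, 177 and 212 in vector cells, a difference of 0.64 log2 units (SE 0.13, limma, adjusted p = 0.0529). TGM2, a transglutaminase that cross-links matrix proteins, read 3729, 3106 and 2876 in RAI2 cells and 1924, 2014 and 1827 in vector cells, a difference of 0.75 (SE 0.15, limma, adjusted p = 0.0529). The groups did not overlap for either gene. HLA-B, a class I antigen-presenting molecule, read 1394, 1567 and 1103 in RAI2 cells and 955, 793 and 663 in vector cells, a difference of 0.77 (SE 0.16, limma, adjusted p = 0.0617). SPDEF, an epithelial ETS factor, read 268, 323 and 277 in RAI2 cells and 442, 498 and 436 in vector cells, a difference of -0.72 (SE 0.15, limma, adjusted p = 0.0715).

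A further 27 genes separated RAI2 from RAI2-4A cells without passing against vector, 10 higher and 17 lower in RAI2 cells. LYPD5, a lipid-anchored surface protein, differed most, with 168, 177 and 201 in RAI2 cells, 1139, 2370.0 and 1251 in RAI2-4A cells and 301, 190.4 and 267 in vector cells. CA2, carbonic anhydrase 2, read 275, 238 and 331 in RAI2 cells, 131, 127 and 138 in RAI2-4A cells and 167, 217 and 199.9 in vector cells. Its difference from RAI2-4A was 1.24 (SE 0.14, limma, adjusted p = 0.00109).

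Vector replicate 1 differed from the other vector arrays most on EEF1G, a translation factor, with 232, 1215 and 277 in RAI2 cells, 241, 3772 and 266 in RAI2-4A cells, and 8989, 269 and 236 in vector cells. CTNNB1, beta-catenin, had 139, 286 and 152 in RAI2 cells, 144, 342 and 149 in RAI2-4A cells, and 1038, 150.3 and 148 in vector cells. Its second bright probe read 926 on vector replicate 1. The cause was not tested.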
